A study of Mus musculus with 8 samples.

Results

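The mitochondrial genome of the mouse was followed here through its own transcripts, measured in brain tissue next to a surgical cavity. The transcripts were the rows of the deposited gene table whose symbol starts with mt- in lower case: 37 of 17644 rows, of which 13 stand for proteins, 2 for ribosomal RNAs and 22 for transfer RNAs. The measurements came from CAGE (cap analysis of gene expression), which sequences the 5′ ends of RNA after selecting capped molecules, and were given in CPM, reads scaled to a common total of reads assigned to genes. All mice were male C57BL/6NCrSlc, 11 weeks old at surgery, and had a cavity aspirated in the motor cortex; the labels name no transgene or drug. Tissue within 1.0 mm of the cavity was taken at once in the No-delay group (4 libraries) and 1 week later in the 1-week group (4 libraries). Both groups thus carry the lesion, no group without it was analysed here, and the tissue is a mixture of cell types.

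Libraries are named below by group and by a letter, A to D,, in alphabetical order of the tag in the column name. A letter shared by both groups does not pair libraries, and the columns could not be matched to numbered samples. The libraries held 8278855 to 13998941 reads. Nothing in the labels ties each library to its own animal beyond the number of brains, so p-values measure the spread between these libraries.

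Mitochondrial DNA is a small circle that is transcribed from both strands into long precursor RNAs. Most genes lie in the heavy-strand transcript, where transfer RNAs sit between the protein and ribosomal RNA genes and are cut out of the precursor, which frees the RNAs on either side. The proteins are all subunits of the respiratory chain and ATP synthase, which otherwise consist of nuclear-encoded subunits, and the ribosomal and transfer RNAs serve the translation of these proteins inside the organelle. Mitochondrial RNAs do not carry the cap of nuclear messenger RNA, so they were counted only as far as they passed the selection without it. Whether they passed it equally in all libraries was not tested, and their CPM are not a direct measure of RNA level. In this annotation 28 of the 37 genes were on the heavy-strand transcript and 9 on the light-strand transcript.

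Neighbouring genes did not always give separate measurements. The mt-Tf row (phenylalanine transfer RNA) held the same value as the mt-Rnr1 row (12S ribosomal RNA) in every library, and the mt-Tk row (lysine transfer RNA) the same value as the mt-Atp8 row. Their sequences are shown because they are different molecules, next to each other on the genome, that share 1 value in the table. They were taken from the GENCODE M21 transcripts on GRCm38; the transfer RNAs are whole, 68 and 65 bases long, and for their partners the first 30 bases are given, with the start codon of mt-Atp8 in capitals.
mt-Tf: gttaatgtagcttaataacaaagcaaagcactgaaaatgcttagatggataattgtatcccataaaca
mt-Rnr1: aaaggtttggtcctggccttataattaatt
mt-Tk: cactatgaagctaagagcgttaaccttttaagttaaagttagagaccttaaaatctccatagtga
mt-Atp8: ATGccacaactagatacatcaacatgattt
The transfer RNA genes were 59 to 75 bases long and the sequencing reads 75 nt, so a read that begins in such a gene runs to its end or beyond it. Within 5% of each other in every library were also mt-Nd2 and mt-Tm, mt-Rnr2 and mt-Tv, mt-Nd6 and mt-Te, mt-Ta and mt-Tn, and mt-Nd5, mt-Tl2 and mt-Ts2. With the identical pairs this makes 7 sets of 15 rows, so that the 37 rows hold 29 values that differ by more than 5%. How the authors assigned reads to overlapping or adjoining genes is not given in the sources used here.

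Some mitochondrial genes also have copies in nuclear DNA, and the sequences below show how much a read could tell them apart. Only annotated transcripts were searched, so a row without a copy named here may still have one. The pseudogenes Gm10925 (against mt-Atp6, over 678 bases) and Gm10222 (against mt-Nd4l, over 294 bases) had 0 mismatches, and the first 61 bases of each pair are printed. Gm28438 differed from mt-Nd3 at 1 of 345 bases, T3C, and Gm13339 from mt-Nd2 at 17 of 510. Positions are counted from 1 at the 5′ end of the mt- gene, the mt- base comes first, and capitals mark the bases that differ; the mt-Nd2 window holds bases 549 to 609, with T579C and T603A.
mt-Atp6: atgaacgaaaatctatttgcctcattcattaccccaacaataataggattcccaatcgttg
Gm10925: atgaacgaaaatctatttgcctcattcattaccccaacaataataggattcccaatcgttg
mt-Nd4l: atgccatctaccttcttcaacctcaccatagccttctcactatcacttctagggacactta
Gm10222: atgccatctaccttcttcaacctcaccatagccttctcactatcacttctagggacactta
mt-Nd3: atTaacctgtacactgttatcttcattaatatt
Gm28438: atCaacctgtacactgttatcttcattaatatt
mt-Nd2: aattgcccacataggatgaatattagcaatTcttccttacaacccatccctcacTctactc
Gm13339: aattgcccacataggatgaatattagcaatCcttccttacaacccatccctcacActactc
Copies with 0 mismatches were also found for mt-Co2 (Gm28661, 681 bases), mt-Co3 (Gm28437, 783 bases), the part of mt-Nd4 in Gm28439 (876 bases) and the 43 bases of mt-Atp8 that Gm10925 also holds. The mt-Co1 copy Gm13340 had 37 mismatches over 1545 bases, and a shorter copy, Gm29216, had 6 over 492 bases. Values of the rows with a perfect copy, mt-Co2, mt-Atp6, mt-Co3, mt-Nd4l, mt-Nd4 and in part mt-Atp8, are therefore uncertain in where their reads came from. The same holds for nearly all of mt-Nd3, since a read that begins past base 3 does not hold its 1 mismatch to Gm28438.

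At 1 week most mitochondrial rows were lower. Of the 36 rows tested, 20 were called lower and 0 higher (limma, Benjamini-Hochberg adjusted p under 0.05 over 14718 rows), and 16 were not called; edgeR and DESeq2 also called 20 lower and 0 higher, and at an unadjusted p under 0.05 limma had 27 lower and 0 higher. Over all rows tested, 13.4% were called lower by limma and 17.5% by edgeR. The calls covered 6 of 13 protein rows, both ribosomal RNA rows (2 of 2) and 12 of 21 transfer RNA rows tested. The median log2 fold change, 1-week over No-delay on the log2(CPM + 1) scale, was -0.56 for the mitochondrial rows and 0.06 for all rows tested. In 14 rows every 1-week library lay below every No-delay library, against 12% of all rows tested. With identical rows counted once, 19 of 34 were called lower, and with rows within 5% of each other counted once, 15 of 28. Even then the rows are not independent. The ratio to mt-Co1 of 16 heavy-strand rows varied only 1.07-fold to 1.5-fold over the libraries. These 16 lie outside mt-Td to mt-Nd4, a stretch set apart after its values were seen. The sum of all mt- rows, a single value per library, had p = 0.0571 in an exact permutation test, or 0.1 adjusted. The count of rows called lower rests in part on single libraries: it was 12 without No-delay B and 5 when No-delay B and 1-week C, chosen after their values were seen, were both left out. In bulk tissue, fewer cells of a type and less RNA per cell cannot be told apart, and CPM gives a share of the library, not an amount per cell.

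**Figure D1:**
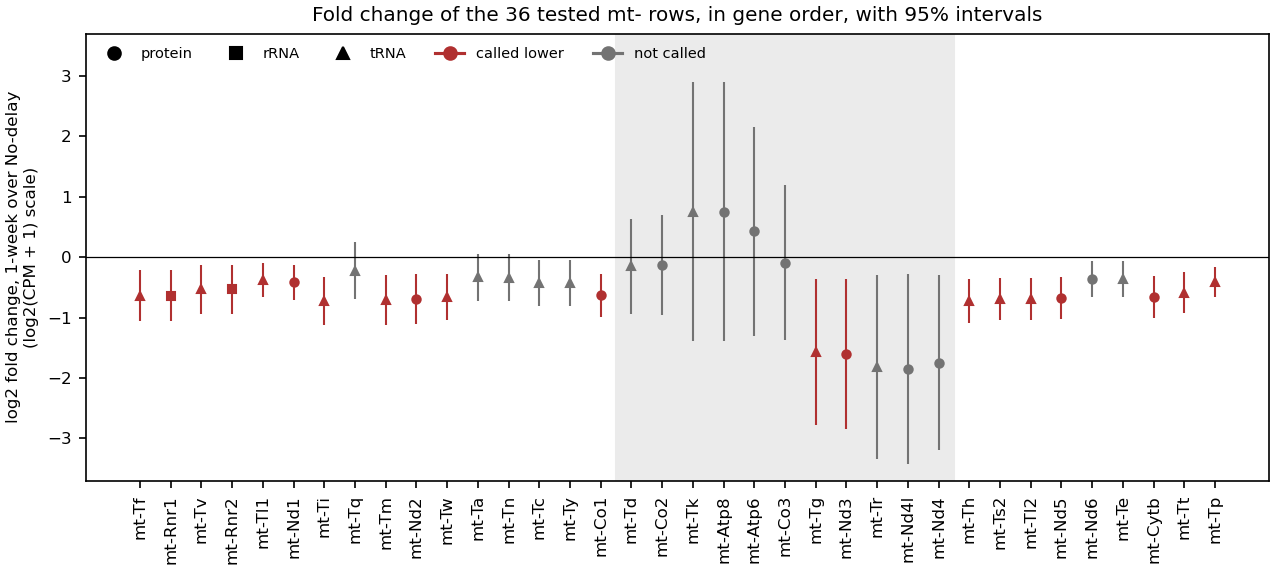
Log2 fold change (1-week over No-delay, log2(CPM + 1) scale, y axis) of the 36 tested mt- rows in gene order (x axis), with 95% limma intervals. Red symbols are the 20 rows called lower, grey ones the 16 not called, and the shaded band holds the 11 rows from mt-Td to mt-Nd4, whose intervals are the widest drawn.

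The rows of the ribosomal RNAs, the scaffold of the mitochondrial ribosome, were called lower at 1 week. The mt-Rnr1 row (12S RNA of the small subunit) stood at 3001, 4851, 4288 and 6820 CPM in No-delay A to D and at 2806, 2979, 2774 and 3124 CPM in 1-week A to D. No-delay A lay inside the 1-week range, so the groups overlapped, and No-delay D was the highest of all. Its log2 fold change was -0.64 (adjusted p = 0.0211 in limma, SE 0.19).

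The mt-Rnr2 row (16S RNA of the large subunit) stood at 5497, 8110, 7398 and 11323 CPM in No-delay A to D and at 5291, 5503, 5098 and 5696 CPM in 1-week A to D. The order of the No-delay libraries was the same as for mt-Rnr1, and the groups overlapped through No-delay A. The log2 fold change was -0.54 (adjusted p = 0.0374 in limma, SE 0.18). Both calls ended without No-delay B or without 1-week C (limma adjusted p = 0.0544 and 0.0513 for mt-Rnr1), and the mt-Rnr2 call ended without any 1 library except No-delay A, with limma adjusted p from 0.0505 to 0.0870.

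Complex I, the NADH dehydrogenase that feeds electrons into the chain, has 7 mitochondrial subunits, of which 4 were called lower, 0 higher and 3 not called. That compares with 13.4% lower and 23.4% higher over all rows tested. The mt-Nd1 row stood at 1958, 2536, 2282 and 3248 CPM in No-delay A to D and at 1862, 1897, 1781 and 1837 CPM in 1-week A to D. The groups did not overlap, and the 1-week libraries lay within 1.06-fold of each other. Its log2 fold change was -0.42 (adjusted p = 0.0250 in limma, SE 0.13), and the call ended without No-delay B (limma adjusted p = 0.0604) or 1-week C (limma adjusted p = 0.0614).

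The mt-Nd2 row, a membrane subunit of the same complex, stood at 363, 568, 426 and 758 CPM in No-delay A to D and at 345, 318, 249 and 350 CPM in 1-week A to D. All 1-week libraries were below all No-delay libraries, with 1-week C the lowest, and the log2 fold change was -0.70 (adjusted p = 0.0122 in limma, SE 0.19).

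The mt-Nd5 row, another membrane subunit, stood at 308, 433, 362 and 551 CPM in No-delay A to D and at 269, 257, 200 and 291 CPM in 1-week A to D. The groups did not overlap, and No-delay D and 1-week C were again the extremes. A log2 fold change of -0.68 was found (adjusted p = 0.00519 in limma, SE 0.16). This call, with those of mt-Th, mt-Ts2 and mt-Tl2 beside it, held in all 20 alternatives run, with limma, edgeR or DESeq2 adjusted p for mt-Nd5 from 0.00139 to 0.0436.

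The mt-Nd3 row behaved differently from library to library. It stood at 407, 592, 545 and 289 CPM in No-delay A to D and at 220, 180, 29.8 and 364 CPM in 1-week A to D. 1-week C was far below the rest, and 1-week D was above No-delay D, so the groups overlapped. The log2 fold change was -1.60 (adjusted p = 0.0437 in limma, SE 0.57) and -0.85 without 1-week C (limma adjusted p = 0.0246). The call was lost in 9 of 20 alternatives, among them edgeR (adjusted p = 0.0659), DESeq2 (adjusted p = 0.131) and the fits without No-delay A, No-delay B, No-delay C or 1-week B (limma adjusted p from 0.0640 to 0.102).

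The other complex I rows were not called. The mt-Nd4l and mt-Nd4 rows, whose values were singled out after they were seen, followed mt-Nd3. The mt-Nd4l row stood at 400.3, 635, 546 and 309 CPM in No-delay A to D and at 232, 185, 15.2 and 363 CPM in 1-week A to D, a 23.9-fold range within the 1-week group. The log2 fold change was -1.85 (adjusted p = 0.0640 in limma, SE 0.73), and mt-Nd4 had -1.75 (adjusted p = 0.0580 in limma, SE 0.67). Without 1-week C, mt-Nd4 had -0.84 and was called (limma adjusted p = 0.0158). The row of the nuclear copy Gm10222, identical to mt-Nd4l over its length, was also lowest in 1-week C, but by less. That library was the lowest of the 1-week group in 25 of 37 mt- rows. Gm10222 stood at 24.2, 29.3, 28.5 and 46.2 CPM in No-delay A to D and at 22.6, 21.9, 17.3 and 25.0 CPM in 1-week A to D. Its highest library was No-delay D, which was the lowest No-delay library for mt-Nd4l. The Gm10222 log2 fold change was -0.51 (adjusted p = 0.0328 in limma, SE 0.17), and its groups overlapped through No-delay A and 1-week D.

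Complex I also has the only protein of the light-strand transcript, mt-Nd6, whose values by library are given by a choice made after they were seen. Its row stood at 99.99, 146, 122 and 175 CPM in No-delay A to D and at 110, 104, 91.4 and 109 CPM in 1-week A to D. The groups overlapped through No-delay A, and the log2 fold change was -0.36 (adjusted p = 0.0593 in limma, SE 0.14). The row was called lower in 6 of 20 alternatives, edgeR among them (adjusted p = 0.0308).

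In complex III, which passes electrons on to cytochrome c, the row of the 1 mitochondrial subunit was called lower. The mt-Cytb row (cytochrome b) stood at 494, 695, 589 and 932 CPM in No-delay A to D and at 461, 410, 348 and 454 CPM in 1-week A to D. The groups did not overlap, and the change on the log2 scale was -0.66 (adjusted p = 0.00642 in limma, SE 0.16).

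Complex IV, cytochrome c oxidase, has 3 mitochondrial subunits, of which 1 was called lower, against 13.4% of all rows tested. The mt-Co1 row, its catalytic subunit, stood at 560, 802, 710 and 1081 CPM in No-delay A to D and at 501, 535, 409 and 546 CPM in 1-week A to D. The groups did not overlap, although No-delay A lay only just above 1-week D. The log2 fold change was -0.63 (adjusted p = 0.00934 in limma, SE 0.16). The mt-Co2 and mt-Co3 rows were not called, with log2 fold changes of -0.13 (adjusted p = 0.817 in limma, SE 0.38) and -0.09 (adjusted p = 0.917 in limma, SE 0.59), and within the No-delay group they spanned a 4.55-fold and an 8.57-fold range.

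ATP synthase has 2 mitochondrial subunits, neither of them called. The mt-Atp8 row, again singled out after its values were seen, stood at 427, 10.2, 703 and 117 CPM in No-delay A to D and at 111, 267, 218 and 491 CPM in 1-week A to D. No-delay B was 69.3-fold below No-delay C, and the whole 1-week range lay inside the No-delay range. Its log2 fold change of 0.76 (SE 0.99, 95% interval -1.39 to 2.90, limma adjusted p = 0.579) became -0.42 with No-delay B and 1-week C left out and -0.25 in edgeR, so no direction could be given. The mt-Atp6 row had the same low and high No-delay libraries, with 26.8 CPM in No-delay B and 719 CPM in No-delay C, a log2 fold change of 0.43 (adjusted p = 0.706 in limma, SE 0.79) and -0.27 in edgeR.

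These uneven rows lie next to each other. In gene order they are the 11 heavy-strand rows mt-Td, mt-Co2, mt-Tk, mt-Atp8, mt-Atp6, mt-Co3, mt-Tg, mt-Nd3, mt-Tr, mt-Nd4l and mt-Nd4, a stretch chosen after the values were seen and for that reason given no test. Of these 11, 2 were called lower (mt-Tg and mt-Nd3) and 9 were not called. All 17 heavy-strand rows outside the stretch were called lower, 13 of them without overlap. For comparison, 13.4% of all rows tested were called lower and 12% lay lower without overlap. In those 17 rows No-delay D was the highest and No-delay A the lowest No-delay library, and 1-week C the lowest 1-week library. Within the stretch No-delay D was the highest No-delay library in 0 of 11 rows. Since the stretch was picked for its uneven values, the contrast with the rows outside follows in part from that choice.

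**Figure D2:**
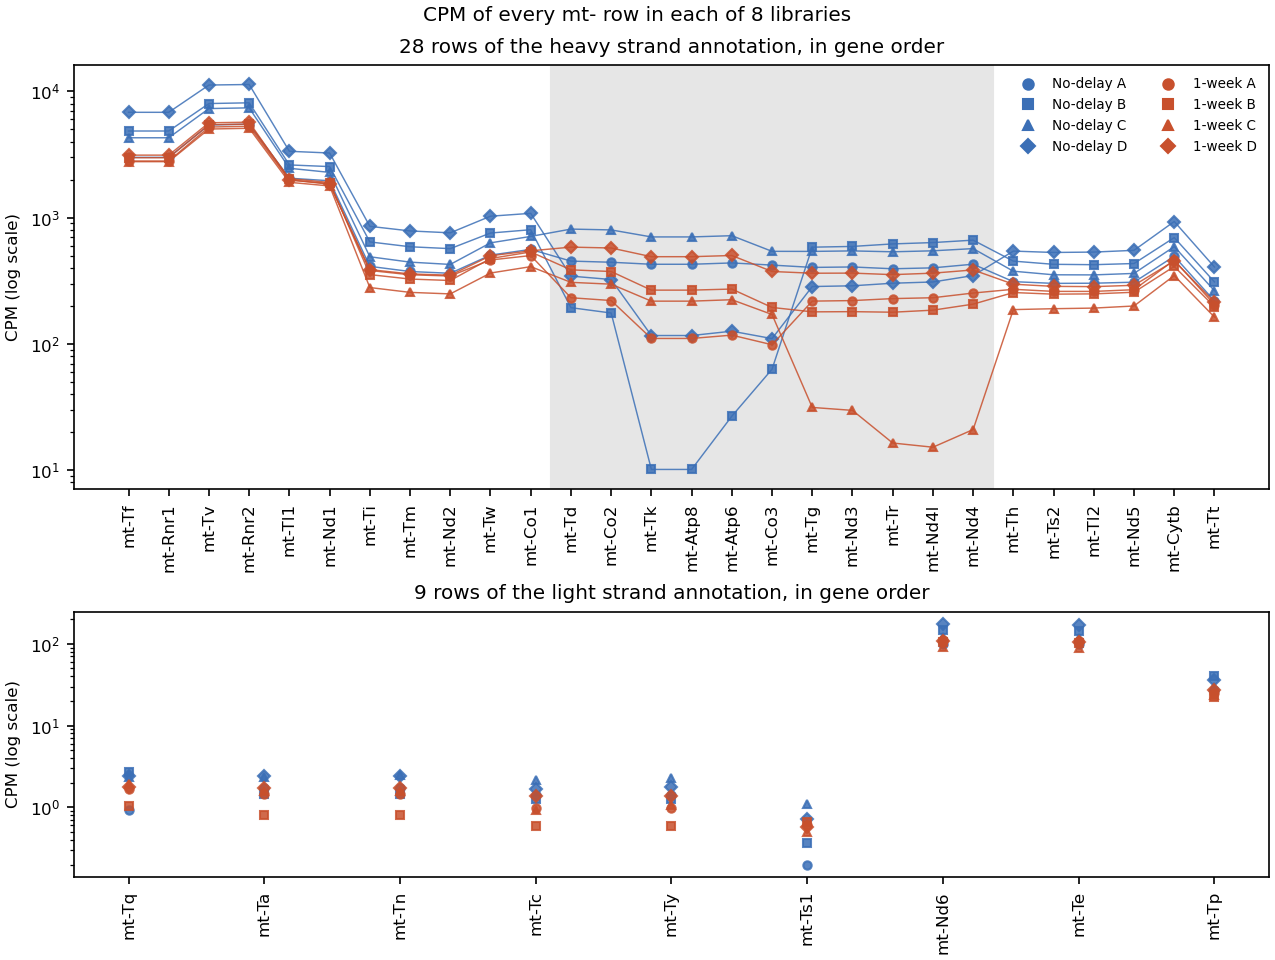
CPM on a log axis (y) of every mt- row in gene order (x), for the 28 heavy-strand rows (upper panel) and the 9 light-strand rows (lower panel), with 1 line or symbol per library. In the upper panel the libraries run nearly parallel outside the shaded stretch, while inside it No-delay B falls to 10.2 CPM at mt-Atp8 and 1-week C to 15.2 CPM at mt-Nd4l.

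Dividing each row by mt-Co1 of the same library takes out the library total. For the 16 other heavy-strand rows outside the stretch, this ratio varied 1.07-fold to 1.5-fold between the lowest and the highest of the 8 libraries (median 1.21-fold). For the 11 rows of the stretch it varied 4.73-fold to 78.3-fold (median 16.1-fold). These rows were picked for their uneven values, so a wider spread among them follows from that choice. The ratio of mt-Atp8 to mt-Co1 was 0.763, 0.0127, 0.991 and 0.108 in No-delay A to D and 0.221, 0.498, 0.533 and 0.898 in 1-week A to D. It was low in No-delay B and D and in 1-week A, so neither group was uniformly low or high.

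Further along the stretch other libraries were low. The ratio of mt-Nd4l to mt-Co1 was 0.714, 0.791, 0.769 and 0.286 in No-delay A to D and 0.463, 0.346, 0.0372 and 0.665 in 1-week A to D. No-delay B, the lowest library at mt-Atp8, was the highest here, and 1-week C was the lowest. By contrast the ratio of mt-Nd5 to mt-Co1 lay between 0.480 and 0.550 in all 8 libraries. Why single libraries were low over part of the stretch was not tested. Among the annotated transcripts searched, every protein row that matched a nuclear copy without mismatches over the aligned bases lies in this stretch. Those rows are mt-Co2, mt-Atp6, mt-Co3, mt-Nd4l, mt-Nd4 and, over 43 bases of Gm10925, mt-Atp8. The mt-Nd3 row, with 1 mismatch to its copy, lies there too. Copies outside the annotated transcripts were not searched for.

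**Figure D3:**
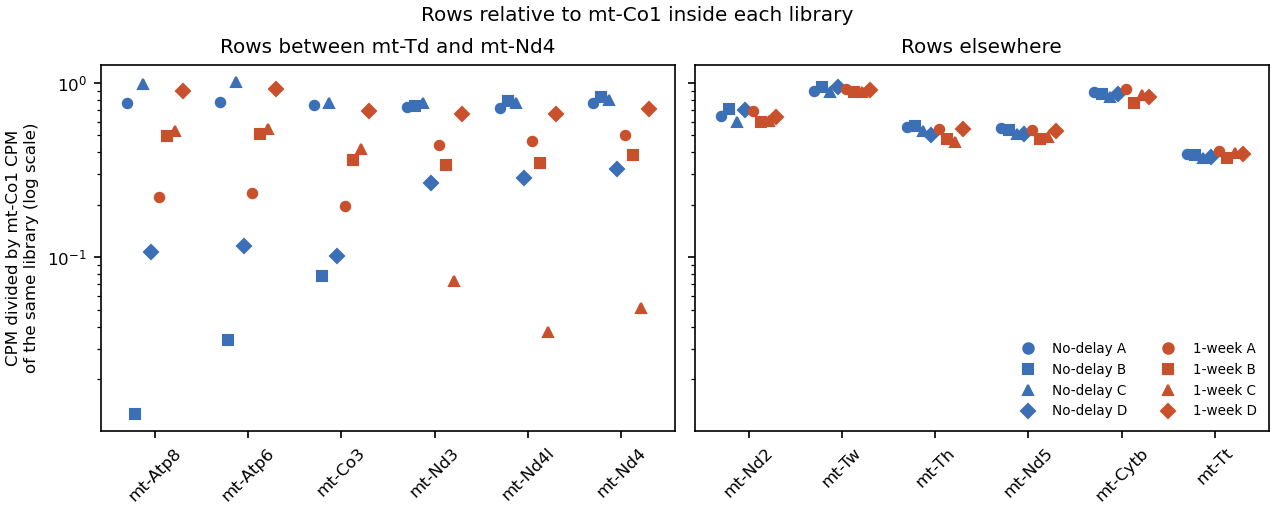
CPM divided by mt-Co1 CPM of the same library (y, log axis) for 6 rows inside the stretch (left) and 6 heavy-strand rows elsewhere (right), 1 symbol per library. The rows on the right stay within a narrow band in every library, whereas mt-Atp8 runs from 0.0127 to 0.991.

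Transfer RNAs carry the amino acids to the mitochondrial ribosome, and their rows are given by strand. Of the 14 on the heavy-strand transcript 11 were called lower, and of the 7 tested on the light-strand transcript 1 was. The share called lower over all rows tested was 13.4%. Among the 7, mt-Tq, mt-Ta, mt-Tn, mt-Tc and mt-Ty stayed at 0.59 to 2.74 CPM, where the log2(CPM + 1) scale understates changes. The difference between the strands was not tested. The mt-Tv row (valine), within 5% of mt-Rnr2, stood at 5414, 8002, 7302 and 11214 CPM in No-delay A to D and at 5213, 5440, 5028 and 5636 CPM in 1-week A to D. The groups overlapped through No-delay A, as for mt-Rnr2. The log2 fold change was -0.54 (adjusted p = 0.0381 in limma, SE 0.18), and the call ended without any 1 library except No-delay A.

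The mt-Tl1 row (leucine), which lies between mt-Rnr2 and mt-Nd1, stood at 2052, 2614, 2458 and 3351 CPM in No-delay A to D and at 1981, 2038, 1903 and 1997 CPM in 1-week A to D. The groups did not overlap, by a margin of 2052 against 2038 CPM. On the log2 scale the change was -0.38 (adjusted p = 0.0334 in limma, SE 0.13), and 8 of 20 alternatives ended the call: no filter on low values, the 2 libraries left out together, and each library left out alone except No-delay A and No-delay C.

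The rows around mt-Nd2 were called lower as well. The mt-Tw row (tryptophan) stood at 505, 755, 632 and 1026 CPM in No-delay A to D and at 462, 475, 364 and 499 CPM in 1-week A to D, without overlap. The log2 fold changes of mt-Tw, mt-Ti (isoleucine) and mt-Tm (methionine) were -0.66 (adjusted p = 0.0112 in limma, SE 0.18), -0.73 (adjusted p = 0.00878 in limma, SE 0.19) and -0.71 (adjusted p = 0.0107 in limma, SE 0.19). The mt-Ti row stood at 411, 642, 490 and 853 CPM in No-delay A to D and at 381, 354, 280 and 388 CPM in 1-week A to D. The mt-Tm row stood at 375, 588, 444 and 785 CPM in No-delay A to D and at 353, 326, 256 and 358 CPM in 1-week A to D. In both, every 1-week library was below every No-delay library.

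The mt-Td row (aspartate), at the start of the uneven stretch, stood at 453, 194, 812 and 344 CPM in No-delay A to D and at 232, 386, 307 and 584 CPM in 1-week A to D. The groups overlapped widely and the log2 fold change was -0.15 (adjusted p = 0.773 in limma, SE 0.36). The remaining heavy-strand transfer RNA rows outside the stretch, mt-Tf, mt-Th (histidine), mt-Ts2 (serine), mt-Tl2 (leucine) and mt-Tt (threonine), were called lower with log2 fold changes from -0.72 to -0.59. On the light-strand transcript mt-Tp (proline) was called lower, from 33.3 CPM ± 6.00 to 24.5 CPM ± 1.90 (SD, n = 4 each), with a log2 fold change of -0.41 (adjusted p = 0.0154 in limma, SE 0.12) and no overlap.

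The other light-strand transfer RNA rows were not called. The mt-Te row (glutamate) followed mt-Nd6, at -0.36. The mt-Tq, mt-Ta, mt-Tn, mt-Tc and mt-Ty rows (glutamine, alanine, asparagine, cysteine and tyrosine) were between 0.59 and 2.74 CPM in every library, which rests on 46 to 86 reads per group. Their log2 fold changes were -0.43 to -0.22, on a scale that understates changes at such low values. The mt-Ts1 row (serine), at 0.20 to 1.09 CPM, did not pass the filter.

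The share of the library taken by the mitochondrial rows had a lower mean at 1 week, but did not pass the test. With identical rows counted once they made up 2.65%, 3.61%, 3.53% and 4.69% of CPM in No-delay A to D and 2.31%, 2.41%, 2.10% and 2.69% in 1-week A to D. No-delay A lay inside the 1-week range, so the groups overlapped by 1 library. The sum was 36213 CPM ± 8347 and 23768 CPM ± 2450 (SD, n = 4 each), a ratio of 0.656, with p = 0.0571 in the exact 2-sided permutation test over 70 arrangements and 0.1 after adjustment over 7 sums and ratios.

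The protein rows summed to 7844 CPM ± 978 and 5174 CPM ± 1087 (SD, n = 4 each), with no overlap and p = 0.0286 in the same exact test, the smallest it can give, or 0.1 adjusted. The ribosomal RNA rows summed to 12822 CPM ± 4013 and 8318 CPM ± 419 (SD, n = 4 each; exact permutation p = 0.0571, adjusted 0.1). The transfer RNA rows summed to 20602 CPM ± 5191 and 13468 CPM ± 1243 (SD, n = 4 each; exact permutation p = 0.0571, adjusted 0.1). Most of that sum is mt-Tf and mt-Tv, whose rows repeat the values of mt-Rnr1 and nearly those of mt-Rnr2. With rows within 5% of another mitochondrial row counted once, the transfer RNA rows summed to 6076 and 4028 CPM (exact permutation p = 0.0286, adjusted 0.1), and the sum of all rows was 26742 and 17520 CPM. None of the sums passed the threshold after adjustment, and the SD of the ribosomal RNA sum was larger in the No-delay group, where No-delay D held 18144 CPM and No-delay A 8499 CPM.

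**Figure D4:**
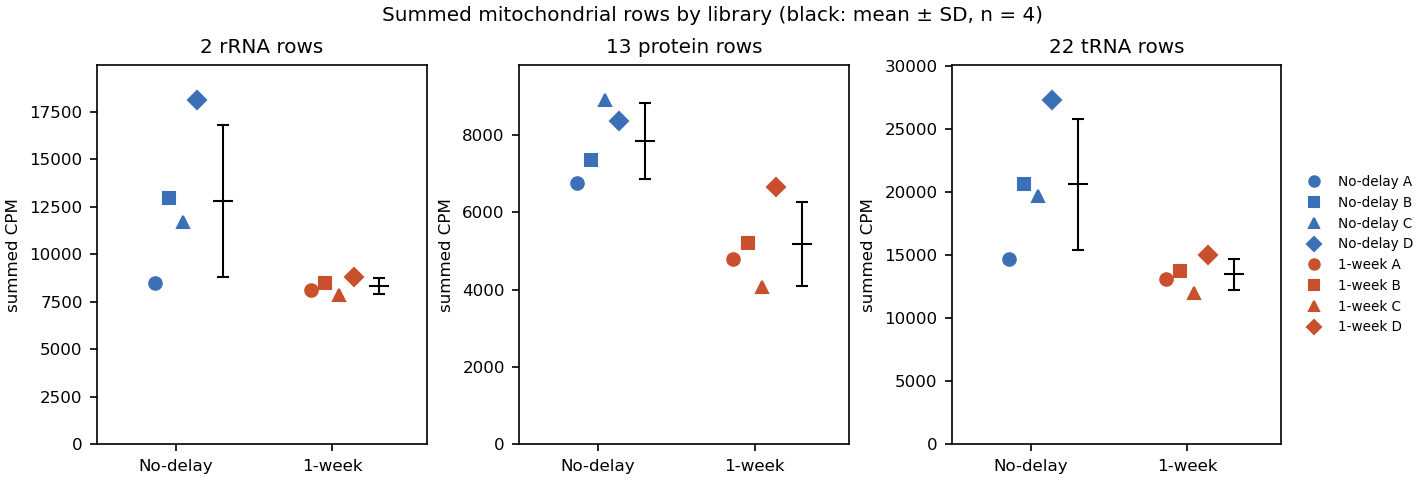
Summed CPM (y, from 0) of the 2 ribosomal RNA, 13 protein and 22 transfer RNA rows in each library, with symbols for libraries A to D and black bars for the mean ± SD of 4 libraries. The protein sums do not overlap between the groups, and No-delay A lies among the 1-week libraries in the other panels; the transfer RNA sum is mostly mt-Tf and mt-Tv, which repeat or nearly repeat the ribosomal RNA values.

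No shift in the proportions of the classes was detected beyond the spread between libraries. The log2 ratio of ribosomal RNA to protein rows was 0.66 ± 0.37 and 0.71 ± 0.23 (SD, n = 4 each; exact permutation p = 0.857), and that of transfer RNA to protein rows 1.37 ± 0.28 and 1.40 ± 0.16 (SD, n = 4 each; exact permutation p = 0.857). With rows within 5% of another counted once, the transfer RNA rows summed to less than the protein rows, and their log2 ratio was -0.37 and -0.35 (exact permutation p = 0.886). The log2 ratio of the light-strand protein row to the heavy-strand protein rows was -5.85 ± 0.31 and -5.59 ± 0.23 (SD, n = 4 each; exact permutation p = 0.2, adjusted 0.28). Without the 11 rows of the stretch, a choice made after seeing the data, that ratio was -5.18 and -5.01, a difference of 0.17. No p-value is given for it, because the rows were left out on account of their values in these libraries. Relative to mt-Co1, mt-Nd6 was 0.178, 0.182, 0.172 and 0.162 in No-delay A to D and 0.220, 0.195, 0.223 and 0.199 in 1-week A to D. All 4 1-week ratios were above all No-delay ratios, although mt-Nd6 itself was not higher in CPM. The mt-Te row, within 5% of mt-Nd6, did the same. For the light-strand row mt-Tp the ratios overlapped, at 0.0331 to 0.0505 in No-delay and 0.0423 to 0.0574 in 1-week libraries. Since mt-Nd6 was singled out after its values were seen, its separation was not tested.

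Most nuclear genes of mitochondria were not called. The 277 tested members of 15 lists of nuclear genes were 31 higher, 8 lower and 238 not called, with a median log2 fold change of 0.07, against 23.4% higher and 13.4% lower over all rows tested. Of 80 nuclear subunits of the respiratory chain and ATP synthase, 9 were higher and 0 lower by limma, with a median of 0.10. At an unadjusted p under 0.05, limma had 15 higher and 3 lower. After adjustment edgeR called 7 higher and 2 lower, and DESeq2 7 higher and 5 lower, so the absence of lower calls held only in limma. The higher ones included Atp5g2, which encodes a subunit of the rotor ring of ATP synthase (77.4 CPM ± 10.3 against 121 CPM ± 15.2, SD over 4 libraries each, log2 fold change 0.64, adjusted p = 6.04e-04 in limma, SE 0.11), and Ndufa3 of complex I (log2 fold change 0.37, adjusted p = 0.00138 in limma, SE 0.07). The strongest were low in CPM: Cox6b2 and Cox7a1, variants of complex IV subunits known from testis and from muscle, rose, the first from 1.66 to 13.8 CPM, the second from 5.12 to 12.2 CPM (log2 fold changes 2.48 and 1.23, limma adjusted p = 1.65e-06 and 0.00515). In complex III 0 of 9 subunits were called by limma or edgeR, and 0 had an unadjusted p under 0.05. Uqcr10, the most abundant of them, stood at 525 and 544 CPM (log2 fold change 0.06, limma adjusted p = 0.671).

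The genes that make and handle mitochondrial RNA were mostly not called. Over all rows tested, limma called 23.4% higher and 13.4% lower. Of the 8 tested genes of the mitochondrial transcription machinery, limma and edgeR called 0, and 1 had an unadjusted p under 0.05 in limma. The most abundant, Mrpl12, stood at 86.9 CPM ± 17.1 and 80.1 CPM ± 11.3 (SD over 4 libraries each, log2 fold change -0.11, limma adjusted p = 0.565). Of 35 genes for RNA processing, stability and decay, 1 was lower: Fastk (log2 fold change -0.31, adjusted p = 0.0454 in limma, SE 0.11). Of 14 genes for the maintenance and replication of mitochondrial DNA, 5 were higher and 0 lower in limma, also at an unadjusted p under 0.05, and edgeR called 1 higher. The largest change was in Top3a, a topoisomerase (log2 fold change 0.47, adjusted p = 0.0192 in limma, SE 0.14).

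In the translation apparatus, 6 of 76 mitochondrial ribosomal protein genes were higher and 2 lower. Mrpl24 had a log2 fold change of 0.47 (limma adjusted p = 0.00178) and Mrps9 one of -0.27 (limma adjusted p = 0.0429). Of 14 translation factors 4 were higher and 1, Guf1, was lower (log2 fold change -0.42, limma adjusted p = 0.00274). Of 17 aminoacyl-tRNA synthetases, which charge the transfer RNAs, 4 were higher and 1, Yars2, was lower (log2 fold change -0.33, limma adjusted p = 0.0295). Over all rows tested 23.4% were higher and 13.4% lower, so the counts of these lists are not read as results about their members.

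Among 9 regulators of mitochondrial biogenesis, Ppargc1a and Gabpa were higher (log2 fold changes 0.48 and 0.37, limma adjusted p = 0.0230 and 0.0279) and 7 were not called. That share is close to the 23.4% called higher over all rows tested, where 13.4% were called lower. Of 14 genes for import, matrix and outer membrane proteins, Immt was higher and Tomm70a, an import receptor, was lower (206 CPM ± 11.5 against 152 CPM ± 9.41, SD over 4 libraries each, log2 fold change -0.44, limma adjusted p = 2.82e-04). Of 11 genes for mitophagy and dynamics, Pink1, a kinase that marks damaged mitochondria, and Bnip3 were lower (log2 fold changes -0.49 and -0.23, limma adjusted p = 0.00450 and 0.00768). These counts moved with the scaling: TMM gave 17 higher and 19 lower over the 15 lists, and edgeR 16 higher and 18 lower, so the balance of directions depends on it.

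**Figure D5:**
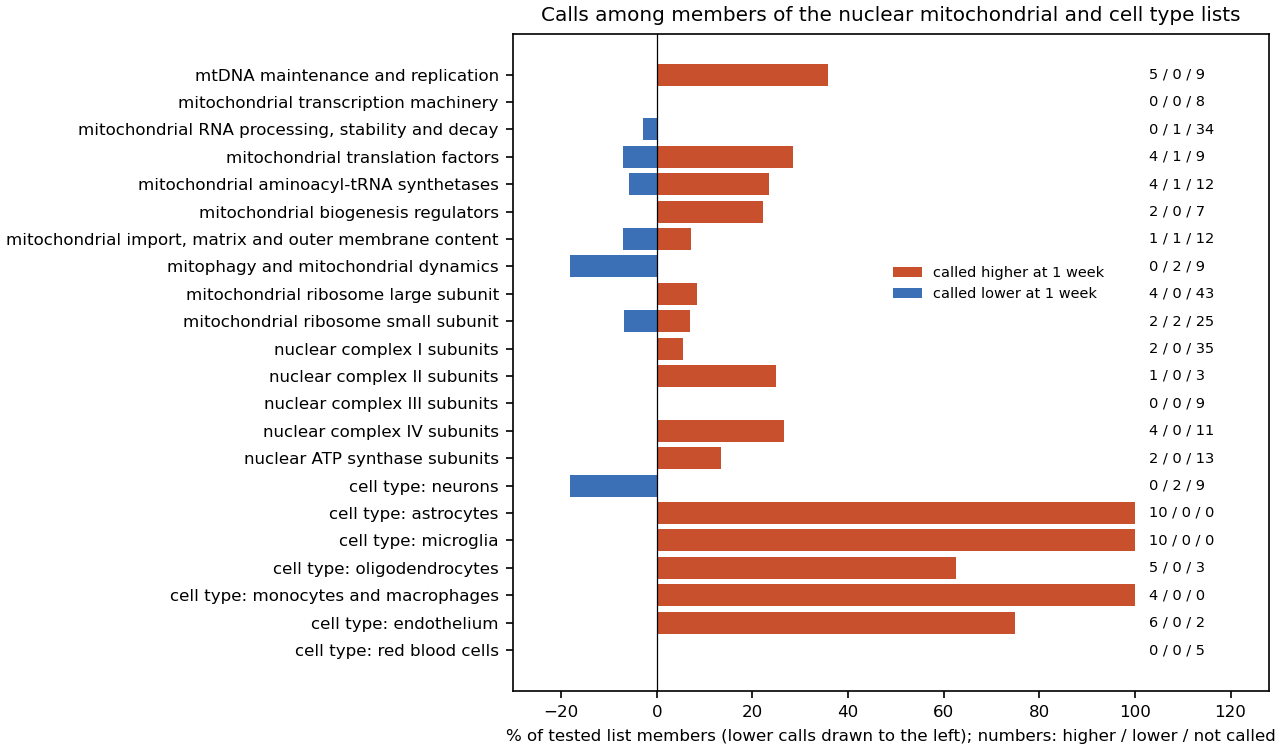
Percentage of tested members called higher (right) or lower (left) at 1 week by limma, for each list of nuclear mitochondrial genes and of cell type markers, with the numbers higher, lower and not called at the right. All 10 astrocyte and all 10 microglia markers were called higher, while the mitochondrial lists hold mostly uncalled genes. The monocyte and macrophage bar covers only the 4 of 8 markers that passed the filter, Ms4a7 through its 1-week values alone, and is not a share of that list.

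The cell type markers of the tissue moved as well. Of 56 tested markers, 35 were higher and 2 lower, and 4 of the 60 in the table did not pass the filter. The 35 include the 4 tested monocyte and macrophage markers, among them Ms4a7, which was tested only because of its 1-week values. The pooled count is therefore not read as a share. Over all rows tested 23.4% were called higher and 13.4% lower. Microglia markers summed to 549 to 560 CPM in the No-delay libraries and 2077 to 3105 CPM in the 1-week libraries, with 10 of 10 higher. Astrocyte markers, also 10 of 10 higher, summed to 2276 to 2586 CPM and 4609 to 5255 CPM. Neuron markers summed to 10248 to 11135 CPM and 9240 to 9952 CPM, with 2 of 11 lower (Rbfox3 and Syt1). Monocyte and macrophage markers summed to 10.2 to 14.2 CPM and 112 to 312 CPM; only 4 of these 8 passed the filter, Ms4a7 through its 1-week values alone, so no share of them is given. Of the endothelial markers 6 of 8 were higher, and limma and edgeR called 0 of 5 red blood cell markers, with 0 at an unadjusted p under 0.05.

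Oligodendrocyte markers varied widely within the groups. They summed to 3404, 2028, 1991 and 1505 CPM in No-delay A to D and to 4024, 4013, 3605 and 2388 CPM in 1-week A to D, with 5 of 8 higher. No-delay A, the highest No-delay library for these markers, was the lowest for the mitochondrial sum, and No-delay D the reverse. Likewise 1-week D was the lowest for these markers and the highest for the mitochondrial sum among 1-week libraries, but 1-week C, the lowest for that sum, stood above 1-week D for the markers. The order was not particular to these markers: neuron markers were also highest in No-delay A (11135 CPM) and lowest in No-delay D (10248 CPM). Red blood cell markers were highest in No-delay A and lowest in No-delay C. Astrocyte markers were lowest in No-delay D and highest in No-delay C. Microglia, monocyte and macrophage, and endothelial markers were lowest in No-delay A. The part of these cell types in the mitochondrial result was not tested.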

How the data were processed

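CAGE libraries from 8 samples gave single-end reads, 75 nt long, and BWA 0.5.9 with build mm9 is named per the submitters' processing notes. The deposited file gives CPM per gene symbol, made by the authors; how reads were assigned to genes, by strand or when multiply mapped, is not stated in the labels. Values were whole multiples of 1 read in each library (100% within 0.1 reads), and 0 reads allow up to 3, or 0.214 to 0.362 CPM; this covers counting error only. Columns were assigned to groups by name.

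Rows that reached 1 CPM in 4 or more libraries (14718 of 17644) were tested 2-sided with limma 3.58.1 (R 4.3.3, variance trend) on log2(CPM + 1), with Benjamini-Hochberg adjustment over all of them. A log2 fold change on this scale understates changes of low rows. Sums and ratios were compared by exact 2-sided permutation (scipy 1.17.1). On recovered reads, edgeR 4.0.16 and DESeq2 1.42.0 were alternatives, beside other pseudocounts, filters and scalings and leaving out each library. Gene order, strand and sequences came from GENCODE M21 on GRCm38; since the files use mm9, no coordinates are given. Nuclear copies were sought only among the annotated GENCODE M21 transcripts, by shared runs of 30 bases, so copies elsewhere in nuclear DNA would be missed.

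The members, lists and tests were chosen with earlier results of these data known. Values by library are given for protein rows called, the 3 most abundant protein rows, ribosomal RNA rows and the 6 most abundant transfer RNA rows not identical to another row, and from each other list for no more than 3 called members, those that changed most on the log2 scale, or failing any call the most abundant member; not all of these list members are named. Rows added after their values were seen are stated as such.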

Additional observations from a re-analysis of the deposited data

How the results depend on the processing

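Under each of 20 alternatives 0 mitochondrial rows were called higher, while the number called lower varied. With 1 library left out the rows called lower were 12 to 21 in all, 4 to 8 for protein, 0 to 2 for ribosomal RNA and 8 to 12 for transfer RNA rows; with No-delay B and 1-week C both left out, a setting added after seeing the data, they were 5, 2, 0 and 3. Without a filter on low values 1 ribosomal RNA row was called lower. Of the 11 rows of the uneven stretch, 6 changed sign under some alternative; mt-Tg, mt-Nd3, mt-Tr, mt-Nd4l and mt-Nd4 stayed below 0 in all 20. The log2 fold change of mt-Atp8 and mt-Tk ranged from -0.46 to 1.53 with 1 library left out, and was -0.25 in edgeR, -0.26 in DESeq2 and -0.42 with both libraries left out. That of mt-Atp6 ranged from -0.48 to 1.09 and was -0.27, -0.28 and -0.44. The ranges with 1 library left out were -0.49 to 0.19 for mt-Td, -0.49 to 0.23 for mt-Co2 and -0.64 to 0.38 for mt-Co3. The log2 ratio of ribosomal RNA to protein rows differed by 0.04 and by -0.0466 without the 11 rows of the stretch (-0.0689 to 0.19 with 1 library left out), and that of transfer RNA to protein rows by 0.03 and -0.0362 (-0.0496 to 0.15). Members of the mitochondrial lists called lower were 8, and 19 with TMM, 21 with median-of-ratios scaling, 15 with quantile normalization, 18 in edgeR and 4 to 12 with 1 library left out. Those called higher were 31, and 17, 16, 23, 16 and 15 to 40 in the same order. Cell type markers called lower were 2, and 4 with quantile normalization and 1 to 2 with 1 library left out. Quantile normalization moved the median of all rows from 0.06 to -0.04. The cause of these shifts was not tested. No paired analysis was possible because the columns carry no replicate number. With 4 libraries a group, the exact test cannot go below p = 0.0286, and depth limits chiefly the light-strand transfer RNA rows under 3 CPM.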

Other observations

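Other nuclear copies of mitochondrial genes had rows of their own with few or no reads. Gm13339 and Gm13340, copies of mt-Nd2 and mt-Co1, held the same value in every library: 2.67 CPM in No-delay C, 0.07 CPM in 1-week B and 0 in the other 6. Gm11407 and Gm11408, copies of mt-Nd5 and mt-Nd6, stayed at or under 0.31 CPM in all 8 libraries. None of these 4 rows passed the filter on low values, and which molecules gave the 2.67 CPM was not tested.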
